A study of Mus musculus with 6 samples.

Results

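The inhibitor of apoptosis proteins (IAPs) and the proteins that counter them were followed in cultured 4T1 cells, which derive from a mouse mammary carcinoma, after TKI258. The genes were chosen by name: the IAP genes Birc2, Birc3, Birc5, Birc6 and Xiap, and the antagonist genes Diablo, Htra2 and Xaf1. All 8 were measured, among 19938 genes represented by their brightest probe set with a single annotated symbol. TKI258 is dovitinib, a small molecule that blocks several receptor tyrosine kinases, chiefly those for FGF, VEGF and PDGF. Both groups were 10 cm dishes seeded with 750000 cells, grown for 24 h in medium with 10% serum and then given fresh medium with DMSO alone (3 arrays) or with 500 nM TKI258 (3 arrays) for 16 h. The arrays are titled as biological replicates of a single cell line, at a single dose and time, so the p-values measure the spread between replicates. The titles do not say whether these were dishes of a single experiment or separate experiments.

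IAPs are recognised by the BIR domain, a zinc-binding fold. Some bind caspases, the proteases that execute apoptosis, some act as ubiquitin ligases on death receptor and NF-kB complexes, and survivin mainly serves chromosome segregation. Mitochondria that lose their outer membrane barrier release cytochrome c, SMAC and HTRA2, and the last pair of these displaces caspases from IAPs. The comparison asks how the transcripts of this system differed after the inhibitor.

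After TKI258 the genes of the ubiquitin ligases cIAP1 (Birc2) and cIAP2 (Birc3) and of the XIAP-binding factor Xaf1 rose, to 1.74, 1.54 and 1.82 times their DMSO level. Survivin (Birc5) and the mitochondrial protease gene Htra2 fell, to 0.689 and 0.670 times. Xiap, Birc6 and Diablo did not pass the test. By limma, with 0.05 as the threshold for adjusted p, 3 of 8 were thus higher and 2 lower, or 62.5% called. Over all 19938 genes 27.0% were called, 14.4% higher and 12.6% lower. All 8 passed a filter at the median of all values, Xaf1 only through its TKI258 arrays. Of the 11215 genes that passed it 5857 were called, 3040 higher and 2817 lower, a larger share than over all genes. Among the 8 genes 5 were again called. The lists below are set against shares of all genes, although 73 of their 83 genes outside cell type markers passed this filter too. In 6 of 8 genes the TKI258 and DMSO arrays did not overlap, against 40.2% of all genes. The share without overlap was not taken after the filter. The called genes went both ways within the IAPs and within the antagonists.

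**Figure D1:**
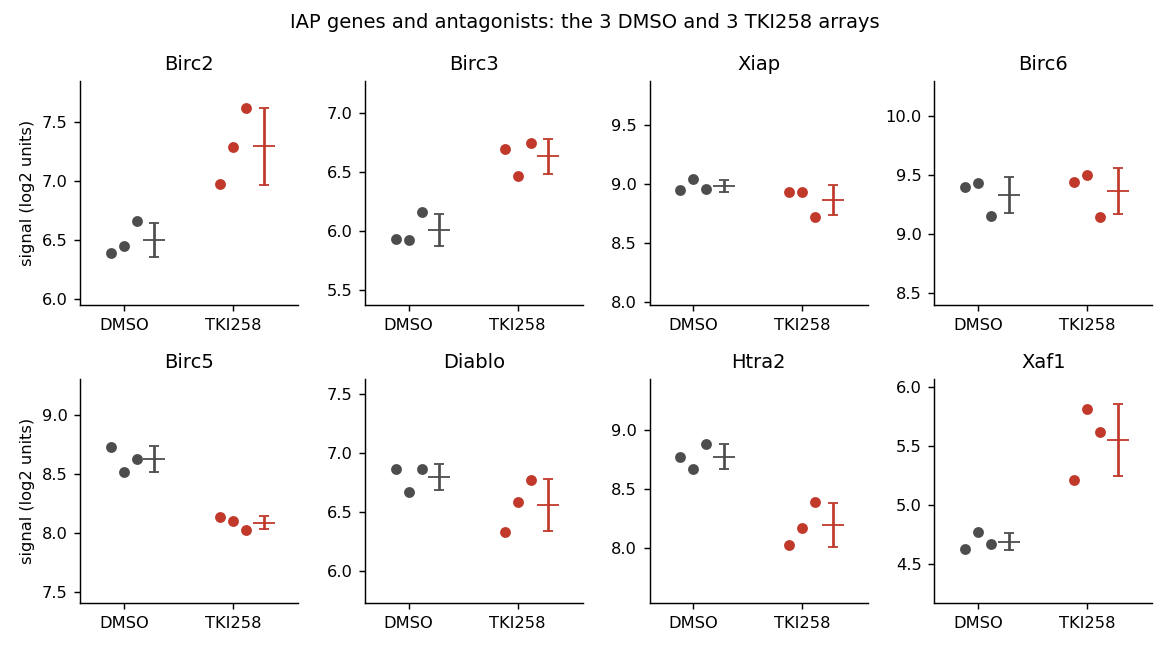
Signal of the 8 genes on each array (vertical axes, log2 units, each panel spanning the same range; points, single arrays; bars, mean ± SD, n = 3) under DMSO and TKI258. Birc2, Birc3 and Xaf1 lay higher on all 3 TKI258 arrays, Birc5 and Htra2 lower, and Birc6 and Diablo overlapped.

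The arrays themselves were alike within a group, with correlations over all genes of 0.997 to 0.998, and 0.988 to 0.990 between groups. Array medians lay between 4.97 and 5.04 log2 units. Precision is limited by having 3 arrays in each group. Of 8 epithelial markers 7 lay above 5.01, the median of all values, and 5 of the 8 were called. Cdh1, Krt19 and Cldn4 rose, by 1.09, 0.94 and 0.89, and Krt18 and Krt7 fell, by 0.50 and 0.39, while Epcam, Krt8 and Cldn7 did not pass. Macrophage markers Cd68 and Cd14 rose, by 0.82 and 0.74, but neither was called with unmoderated variance (adjusted p = 0.0567 and 0.0828). The linear signal summed over 5 such markers was 192.3 to 214.1 under DMSO and 265.3 to 376.3 under TKI258. The defining leukocyte gene Ptprc stayed between 3.68 and 3.84 on all 6 arrays, and Csf1r and Adgre1 means were at most 3.85. The fibroblast markers Pdgfra and Dcn rose while Col1a1, Col1a2, Lum and Thy1 did not pass, with summed signals of 481.8 to 514.9 and 1101 to 1166. Of 3 lymphocyte and 4 endothelial markers 0 passed in limma, also in the 14 alternatives that tested them, and 0 had an unadjusted p below 0.05. The part of these markers in the results below was not tested. Among 5 housekeeping genes Hprt and Tbp fell, by 0.43 and 0.28, and Actb, Ppia and Rplp0 did not pass. Leaving out replicate 1 or 2 of either group brought the called housekeeping genes to 1.

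Birc2 encodes cIAP1, a RING ubiquitin ligase that binds TRAF2 at the TNF receptor and holds down the kinase NIK. Its DMSO arrays read 6.39, 6.44 and 6.66 log2 units, and its TKI258 arrays 6.97, 7.29 and 7.62. The groups were 0.31 apart at their nearest arrays, and the TKI258 arrays spread more (SD 0.32) than the DMSO arrays (SD 0.15, n = 3 each). The log2 change was 0.79 (SE 0.15, adjusted p = 0.00344), a size above 96.1% of all genes. With each gene's own variance, unmoderated, the call was lost (adjusted p = 0.0728), over a range of 0.000386 to 0.0728 in 15 alternatives.

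A second, dimmer probe set is annotated to Birc2, from a cDNA clone. It read 5.63, 5.33 and 5.38 in the DMSO arrays and 5.83, 6.03 and 6.10 in the TKI258 arrays, again without overlap. Tested among all single-symbol probe sets it had a log2 change of 0.54 (SE 0.10, adjusted p = 0.00385), the same direction as the brighter one.

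Birc3 encodes cIAP2, the closest relative of cIAP1, and is the next annotated gene to Birc2 on mouse chromosome 9. The DMSO arrays gave 5.93, 5.92 and 6.17 log2 units and the TKI258 arrays 6.69, 6.47 and 6.74. Its groups were also 0.30 apart at their nearest arrays. This gave a log2 change of 0.63 (SE 0.097, adjusted p = 0.00117), and adjusted p ranged from 0.000224 to 0.0333 over 15 alternatives. The 95% intervals of the changes were 0.41 to 0.85 for Birc3 and 0.46 to 1.13 for Birc2, and each contained the other gene's estimate. Because the genes are close relatives, how far a probe of one also reads the other is not known here.

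The promoter letters of the neighbouring pair were searched for 7 motifs in RefSeq windows of 300 bases (250 before to 50 after a start, build GRCm38.p6), on both strands. The windows matched 7 of the 8 genes, in 10 windows, since some genes have several starts. The motifs were the cell cycle genes homology region TTTGAA, the E2F core TTTNNCGC, the NF-kB site, the interferon-stimulated response element core, the STAT site TTCNNNGAA, the cyclic AMP response element TGACGTCA and the AP-1 site TGANTCA. Of all 32851 windows, 17.9% held the first, 5.17% the E2F core, 8.46% the NF-kB site, 3.44% the interferon element, 8.3% the STAT site, 1.79% the cyclic AMP element and 7.81% the AP-1 site. No matches of different motifs overlapped in the windows of these genes. The first of the Birc2 windows held the cyclic AMP element, starting 35 bases before the start, and it is shown because so few windows hold it. Another RefSeq transcript of Birc2 starts further upstream, so the element lies inside the gene's annotated span (chr9:7837074-7837103, minus strand, element in capitals). The Birc3 window held none of the 7, which says only that these letters are not in that window.
Birc2: tgcgcgtctgcTGACGTCAcctcaacggcc

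Xiap, the direct inhibitor of initiator and effector caspases, differed little. Its DMSO arrays gave 8.95, 9.05 and 8.96 log2 units and its TKI258 arrays 8.93, 8.94 and 8.72. The groups did not overlap, but were only 0.014 apart at their nearest arrays. TKI258 minus DMSO came to -0.12 on the log2 scale (SE 0.079, adjusted p = 0.324), with a 95% interval of -0.30 to 0.056. A fall of up to about that lower bound was therefore within the error.

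Birc6 encodes a giant IAP that joins ubiquitin-conjugating and ligase activity. It read 9.40, 9.43 and 9.15 under DMSO and 9.44, 9.50 and 9.14 under TKI258. The lowest array of each group was replicate 3, and the groups overlapped throughout. The difference was 0.032 on the log2 scale (SE 0.11, adjusted p = 0.885), with a 95% interval of -0.22 to 0.28. Its sign turned when DMSO replicate 3, TKI258 replicate 1 or TKI258 replicate 2 was left out, to -0.057, -0.0074 and -0.038.

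**Figure D2:**
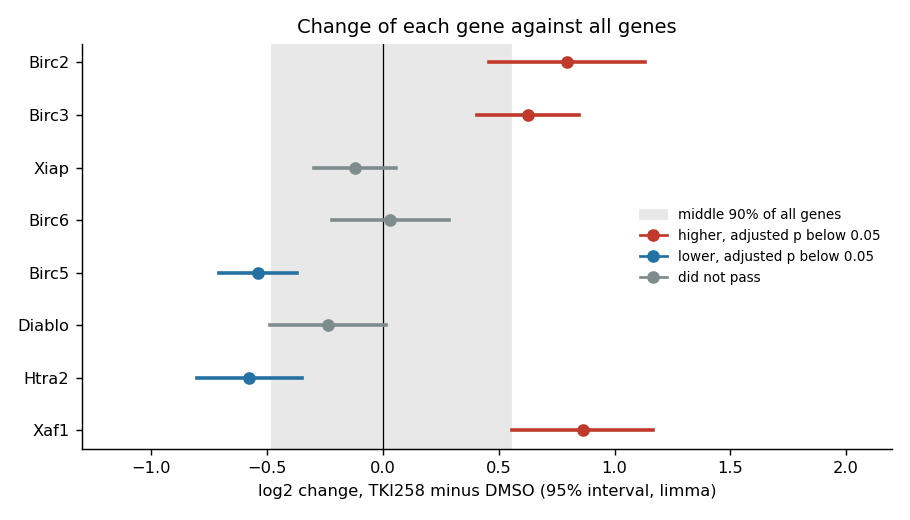
Log2 change of each gene, TKI258 minus DMSO (horizontal axis; points, limma estimates; lines, 95% intervals; n = 3 arrays per group), against the middle 90% of all 19938 genes, from -0.48 to 0.55 (grey band). The estimates of Birc2, Birc3 and Xaf1 lay above the band and those of Birc5 and Htra2 below it, while Xiap, Birc6 and Diablo lay inside.

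Birc5 encodes survivin, the smallest of these IAPs and the subunit that brings Aurora B kinase to centromeres. The DMSO arrays read 8.73, 8.52 and 8.63 log2 units and the TKI258 arrays 8.13, 8.10 and 8.03. All TKI258 arrays lay below all DMSO arrays, by 0.38 at the nearest, and they were the tighter group, with SD 0.055 against 0.11 (n = 3 each). The log2 change was -0.54 (SE 0.074, adjusted p = 0.000608). Leaving out each array in turn gave -0.59 to -0.49, with adjusted p from 0.00116 to 0.00373, and over all 15 alternatives adjusted p was at most 0.0145.

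The bases just upstream of the Birc5 start are shown because Birc5 fell and the human survivin promoter is known for its cell cycle elements (chr11:117849117-117849236, plus strand, GRCm38.p6). They held a match to the NF-kB site, in capitals, that starts 44 bases before the start, and a second match lay 20 bases after it. Neither the cell cycle genes homology region nor the E2F core had a match in the Birc5 window. A window of Xiap, which did not pass the test, also held an NF-kB match, and another Xiap window held the TTTGAA letters.
Birc5: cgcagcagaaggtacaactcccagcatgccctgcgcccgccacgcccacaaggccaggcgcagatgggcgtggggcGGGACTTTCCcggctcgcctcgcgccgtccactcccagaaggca

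The partners of survivin in the chromosomal passenger complex, and the proteins that recruit it to centromeres, fell in 7 of 7 cases, against 12.6% of all genes, with a median log2 change of -0.48 against 0.015 over all genes. Aurkb, the kinase of the complex, had -0.49 (SE 0.074, adjusted p = 0.000971). Its DMSO arrays gave 10.09, 10.06 and 10.15 and its TKI258 arrays 9.63, 9.49 and 9.71. The scaffold gene Incenp fell by 0.44 and the borealin gene Cdca8 by 0.48 on the log2 scale. Haspin, the kinase whose histone mark survivin reads, fell by 0.66, and the cohesin protector gene Sgo1 by 0.51. Sgo2a and the checkpoint kinase gene Bub1 also fell, by 0.43 and 0.45. All 7 changes lay within the 95% interval of Birc5, -0.71 to -0.37. The count was 7 under each of the 15 alternatives.

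**Figure D3:**
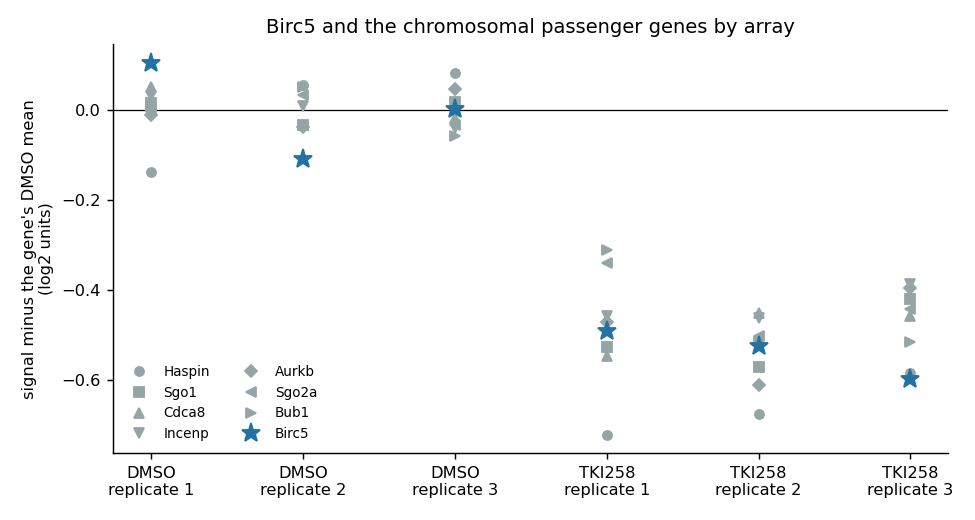
Signal of Birc5 (star) and the 7 chromosomal passenger genes (grey) on each of the 6 arrays, as the difference from the gene's own DMSO mean (vertical axis, log2 units). On the TKI258 arrays Birc5 lay at -0.49, -0.52 and -0.60, and the lowest and highest of the grey genes over those arrays were Haspin at -0.72 and Bub1 at -0.31.

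Of 12 other genes of G2 and mitosis 8 fell and 0 rose, against 12.6% of all genes lower, with a median of -0.29. The difference from the passenger genes was not tested. The mitotic kinase genes Aurka, Cdk1 and Plk1 fell by 0.49, 0.47 and 0.40, and the cyclin A gene Ccna2 by 0.39. Ccnb2 had 0.14, Cdc20 -0.20, Top2a -0.15 and Mki67 -0.19, and these did not pass. The count was 5 when replicate 1 or 3 of DMSO or replicate 2 of TKI258 was left out, and with unmoderated variance. Fewer cells in late cell cycle and less of each RNA per cell cannot be told apart in such bulk RNA.

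Diablo encodes SMAC, whose exposed N terminus docks into BIR domains and frees caspases. It read 6.86, 6.67 and 6.86 log2 units under DMSO and 6.33, 6.58 and 6.77 under TKI258, and the groups overlapped through TKI258 replicate 3. The log2 change was -0.24 (SE 0.11, adjusted p = 0.165), with a 95% interval of -0.49 to 0.015. Without TKI258 replicate 3 it was -0.34 and passed (adjusted p = 0.0418), in a range of 0.0418 to 0.418 over 15 alternatives.

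Htra2 encodes a serine protease that guards protein quality in mitochondria and, once released, cleaves IAPs. Its DMSO arrays gave 8.77, 8.66 and 8.88 log2 units and its TKI258 arrays 8.02, 8.17 and 8.39. The groups did not overlap and lay 0.28 apart at their nearest arrays. It fell by 0.58 on the log2 scale (SE 0.10, adjusted p = 0.00229), a size above 92.0% of all genes. As for Diablo, TKI258 replicate 3 was the highest of its group. Adjusted p was 0.00017 to 0.0461 over 15 alternatives.

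Around these released proteins the apoptosome genes were mixed. Cytochrome c, which assembles the apoptosome, had the largest change of the caspase and apoptosome list. Its gene Cycs read 10.52, 10.55 and 10.52 under DMSO and 9.44, 9.59 and 9.75 under TKI258, a log2 change of -0.94 (SE 0.084, adjusted p = 5.25e-05). Over 15 alternatives the change of Cycs was -1.02 to -0.70, with adjusted p at most 0.00773. The apoptosome scaffold gene Apaf1 fell by 0.27 and the caspase gene Casp2 by 0.22, while the initiator caspase gene Casp9 rose by 0.31. Casp6 and Casp8 had 0.17 and 0.015 and did not pass, so 4 of 6 measured genes were called against 27.0% of all genes. That count was 2 without DMSO replicate 1 or TKI258 replicate 2 and 1 without DMSO replicate 2. All 6 passed the filter at the median of all values, where 4 were again called, against 5857 of 11215 genes.

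Among 9 mitochondrial proteases and other released factors 1 rose and 3 fell, against 27.0% of all genes called, with a median log2 change of -0.14. All 9 passed the filter at the median of all values, again with 4 called, against 5857 of 11215 genes, a larger share. Oma1, a stress-activated inner membrane protease, rose by 0.34. The inner membrane protease gene Afg3l2, the matrix protease gene Clpp and the rhomboid protease gene Parl fell by 0.42, 0.37 and 0.23. The released factors Aifm1 and Endog, at -0.087 and -0.16, did not pass. Parl lost its call in 8 of 15 alternatives, among them each fit that lacked a DMSO array or replicate 1 of TKI258 (adjusted p up to 0.108), and Clpp in 1, with unmoderated variance (adjusted p = 0.0661).

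Of 4 other genes tied to IAPs or to their antagonists 1 rose and 2 fell, against 27.0% of all genes called. The 1 that rose acts against the antagonists, not against IAPs. Arel1, a ubiquitin ligase that degrades SMAC, HTRA2 and ARTS, rose by 0.52 (SE 0.061, adjusted p = 0.000248), from DMSO readings of 8.78, 8.72 and 8.75 to 9.22, 9.27 and 9.31. The translation termination factor gene Gspt1, a processed form of which binds IAPs, fell by 0.39, and the mitochondrial phosphatase gene Pgam5 by 0.40. Septin4, which encodes the XIAP antagonist ARTS, had 0.14 and did not pass. Of the other IAP family genes, Naip2, Naip5 and Birc7 did not pass, and Naip6 rose by 0.43 (adjusted p = 0.0187). Naip6 read 3.26 ± 0.084 (SD, n = 3) under DMSO, well below the median of all values, has close paralogs, and lost its call when replicate 1 or 3 of DMSO, or replicate 2 or 3 of TKI258, was left out.

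Xaf1 encodes a zinc finger protein that binds XIAP and is induced by interferon in many cells. It had the largest estimated change of the 8 genes, although its interval held the estimate of Birc2 as well. Its DMSO arrays gave 4.63, 4.77 and 4.67 log2 units and its TKI258 arrays 5.22, 5.82 and 5.62. The groups lay 0.45 apart at their nearest arrays, and the TKI258 arrays spread more (SD 0.31) than the DMSO arrays (SD 0.073, n = 3 each). Its log2 change was 0.86 (SE 0.13, adjusted p = 0.00123), with a 95% interval of 0.56 to 1.17, and adjusted p was 0.000121 to 0.0447 over 15 alternatives. The DMSO mean of 4.69 lay below the median of all values, 5.01, where a log2 change is less certain.

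The Xaf1 window, drawn from a RefSeq start that lies downstream of the gene's outermost one, held one AP-1 match 38 bases before that start. The bases lie inside the gene's annotated span, and the match is shown because AP-1 is a known endpoint of growth factor signalling (chr11:72301579-72301608, plus strand, GRCm38.p6, match in capitals). It also held the TTTGAA letters, 62 bases before the start, and no match to the interferon-stimulated response element core or the STAT site.
Xaf1: tccctgccgctgTGAGTCAggctgggcaaa

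Of 10 measured interferon-response genes 7 rose and 0 fell, against 14.4% of all genes higher, with a median log2 change of 0.79. Irf1, an interferon-induced transcription factor, rose from 7.65, 7.60 and 7.73 to 8.91, 9.18 and 8.96, a log2 change of 1.36 (SE 0.084, adjusted p = 7.11e-06). With the probe sets of Irf1 averaged it was 0.80 (adjusted p = 3.82e-05). Stat2 and Irf9, which form the interferon-activated complex, rose by 1.03 and 0.98, and the antiviral gene Oasl2 by 1.18. The antiviral genes Mx1 and Rsad2, at -0.12 and -0.024, did not pass. A larger interferon list had already been seen to rise in these arrays, so this count is not independent of that.

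The TNF receptor complex, where cIAP1 and cIAP2 act, had 5 genes higher and 0 lower of 15, with a median of 0.097. Over all genes 14.4% were higher and 27.0% called. All 15 passed the filter at the median of all values, and there 5 were higher and 1 lower. Of the 11215 genes that passed it 3040 were higher and 5857 called. The share higher was smaller than in this list and the share called larger. Traf2, the adaptor that carries the cIAPs, read 8.30, 8.25 and 8.36 under DMSO and 8.74, 8.61 and 8.82 under TKI258. That was a log2 change of 0.42 (SE 0.075, adjusted p = 0.00264). The ubiquitin-editing gene Tnfaip3 rose by 0.55, Sharpin of the linear ubiquitin ligase by 0.33, and Traf5 and the deubiquitinase gene Cyld by 0.27 and 0.21. The other linear ubiquitin ligase genes Rnf31 and Rbck1, at 0.12 and 0.035, did not pass, nor did Traf1 at 0.068 or Cflar at 0.097. The count of 5 was 2 without DMSO replicate 2 and 3 without DMSO replicate 3 or TKI258 replicate 1. It became 4 higher and 1 lower with the replicate number as a block or with quantile normalization repeated. Without DMSO replicate 1 it was 3 higher and 1 lower, and with trend and robust eBayes 5 higher and 2 lower.

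Of 11 NF-kB subunit, kinase and inhibitor genes 4 rose and 0 fell, with a median of 0.13. Over all genes 14.4% were higher and 27.0% called. All 11 passed the filter at the median of all values, and there 5 rose and 0 fell. Of the 11215 genes that passed it 3040 were higher and 5857 called. The share higher was smaller than in this list and the share called larger. The inhibitor genes Nfkbie and Nfkbia rose most, by 0.87 and 0.79, the latter from DMSO readings of 9.68, 9.62 and 9.72 to 10.49, 10.34 and 10.57 (SE 0.076, adjusted p = 7.63e-05). The kinase scaffold gene Ikbkg rose by 0.51 and the noncanonical subunit gene Relb by 0.28. Relb lost its call in 4 of 15 alternatives, including without replicate 1 or 2 of DMSO (adjusted p = 0.0799 and 0.0542). Map3k14, which encodes the cIAP substrate NIK, had 0.13 and Nfkb2 0.026, and neither passed. The subunit genes Rela and Rel, at 0.095 and 0.021, did not pass either. Birc2 and Birc3 are themselves known NF-kB targets, but whether NF-kB had a part in their rise was not tested. Their windows of 300 bases held no match to the NF-kB site, and sites elsewhere were not searched.

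**Figure D4:**
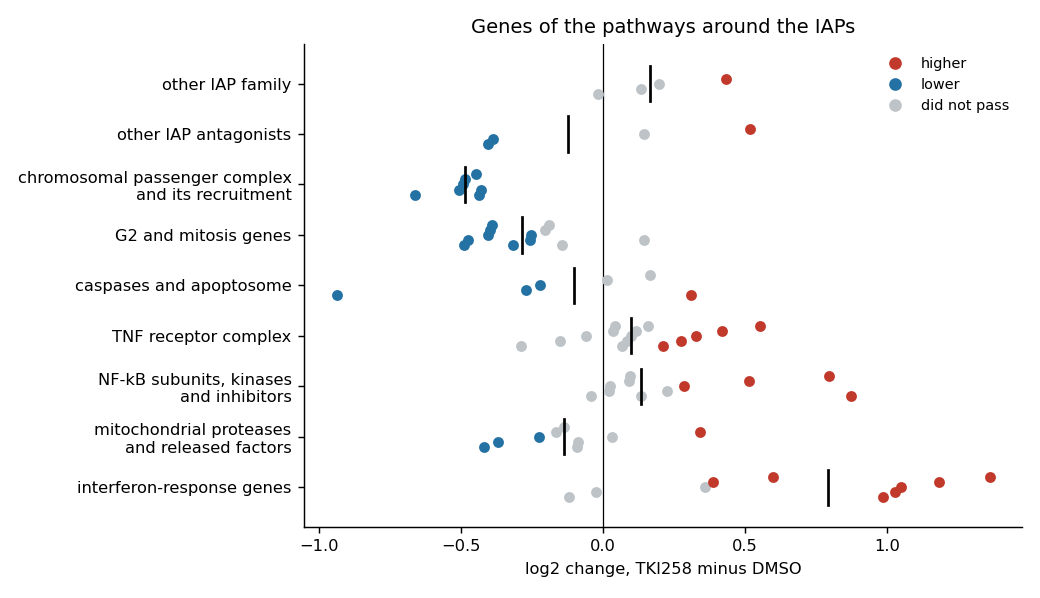
Log2 change, TKI258 minus DMSO (horizontal axis), of every measured gene in 9 lists around the IAPs (rows; points, single genes; vertical bars, list medians; colour, call at an adjusted p below 0.05). The chromosomal passenger genes fell in 7 of 7 cases and the interferon-response genes rose in 7 of 10, while the caspase and apoptosome genes lay on both sides of 0.

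For each called gene, the named genes with the most similar values over the 6 arrays were found from the root mean square difference after subtracting each gene's DMSO mean. Nearest to Birc5 were Gstcd, Cstf2 and Rbm38, at 0.034, 0.038 and 0.041 log2 units. Birc3 had Scn3a, Nudt13 and Rnf128, at 0.036 to 0.051. Gadd45b, a stress-response gene, was nearest to Birc2 at 0.062, followed by Rab19 and Cbr4. Closest to Htra2 were the RNA polymerase II subunit gene Polr2d, at 0.038, the mediator gene Med18 and Mphosph6. Xaf1 had looser neighbours in Glt8d2, Tmem106a and Sorbs2, at 0.090 to 0.11. By its construction the measure picks genes with a similar size of change on these 6 arrays.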

How the data were processed

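Expression was measured on 6 Affymetrix arrays, grouped by their titles into 3 DMSO and 3 TKI258. The table deposited by the authors has 35557 probe sets with a single value for each array. The tools listed are RMA, affy and limma, with neither role nor version, per the submitters' processing notes. No source used here states the scale, and the deposited numbers were read as log2 signals from their range and near-equal quartiles. RMA usually equalises the arrays, which can mask a change common to all genes, and compresses changes of dim probes.

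Names came from the platform annotation of 2016. Probe sets with 1 symbol numbered 21789, those with several 1621 and those with none 12147. Each gene took its brightest probe set over the 6 arrays. The groups were compared in limma 3.58.1 (R 4.3.3; lmFit, eBayes, treatment as the only term), two-sided, with Benjamini-Hochberg adjustment over 19938 genes, a threshold of 0.05 and no filter. On simulated data for TKI258 against DMSO, with 19938 genes, 5 of 50 changes of 0.25 were recovered, 42 of 50 of 0.5, and 50 of 50 of 1 and of 2. Only these genes were changed, far fewer than the 5385 called in the data. The adjustment was therefore stricter there, and the recovered shares do not carry over to the data.

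Named genes are the 8 genes of the report, up to 4 called genes per list by adjusted p (2 where none passed), and the 3 nearest profiles of each called gene. Other list genes are named with their values for contrast and were chosen after those were seen. The genes and lists were chosen with earlier results of these data known.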

Additional observations from a re-analysis of the deposited data

How the results depend on the processing

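The 15 alternatives were a replicate block, 6 fits that each lacked 1 array, quantile normalization repeated, arrays centred on their medians, a filter at the median of all values, probe sets averaged per gene, probe sets tested singly, eBayes with trend and robust, unmoderated variance and an adjusted p of 0.01. The calls and directions of Birc3, Birc5, Htra2 and Xaf1 held in all 15, and Xiap passed in none. Each of these genes has a single probe set, so averaging probe sets or testing them singly could not alter its change. The threshold of 0.01 only reads the main fit again. For Xaf1 the filter is no check, since its DMSO mean lies below the limit and its TKI258 mean above it. Birc2 lost its call only with unmoderated variance, at the same 0.79 (adjusted p = 0.0728). Leaving out each array in turn gave -0.057 to 0.14 for Birc6 and -0.34 to -0.12 for Diablo, with the sign changes and the single call given above. Called genes among the 8 numbered 4 to 6, and among everything tested 3724 to 6022. The numbers tested differed in part, with 5857 called of 11215 genes after the filter and 5776 of 21789 probe sets tested singly. The median change over all genes was 0.015, with -0.0088 after centring and 0.0092 after repeated quantile normalization.

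Whether arrays with the same replicate number form pairs is not settled here. Same-numbered arrays had correlated deviations of 0.018, 0.050 and 0.15, and only the arrays numbered 3 correlated best with each other. With the replicate number as a block, 5364 genes were called instead of 5385, and 5 of the 8 genes either way, with an adjusted p of 0.00224 for Birc5 and 0.00123 for Birc2. The block lowered the SE of all 8 genes, for Birc2 from 0.15 to 0.086 and for Birc6 from 0.11 to 0.061.

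With 3 arrays a group and no detection calls, small changes are hard to call, though Cyld passed at 0.21. The simulation changed far fewer genes than were called in the data, so it sets no detection limit for these arrays. For Xiap, Birc6 and Diablo the intervals bound the change.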
